A study of Mus musculus with 6 samples.

Results

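Genes for smooth muscle contraction, the actin cytoskeleton and cell adhesion were followed in mouse embryonic fibroblasts with and without ASCIZ. ASCIZ, also called ATMIN, is a zinc finger transcription factor that switches on Dynll1, the gene of a dynein light chain. A list of 50 genes by name defined the group: actins, calponins, myosins, tropomyosins, other actin-binding proteins, focal adhesion proteins, SRF with secreted targets, and integrins. Of these 50, 48 had a probe under the listed name and 47 were tested. ACTG1, cytoplasmic gamma actin, and CNN3, an acidic calponin, had no probe under their names. CNN1, basic calponin of smooth muscle, had 1 probe, detected on 2 of 6 arrays at a normalised log2 intensity of 4.45 to 4.82, and was not tested. The whole array held 30774 target names, of which 12824 were tested. Member names are printed in the capitals of the array's target names. CTGF and CYR61 are now called Ccn2 and Ccn1.

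Each of the 6 cultures came from a separate embryo of embryonic day 12.5 on a C57BL/6 background, 3 with the genotype Asciz-/- (knockout) and 3 with Asciz+/+ (wild type). All were primary fibroblasts passaged a single time in Dulbecco's Modified Eagle's Medium with fetal bovine serum, and RNA of each was put on 1 MouseWG-6 bead array. The labels name no cell type to which the knockout was limited, and fibroblasts prepared from embryos are a mixture of mesenchymal cells. The question put to the members was whether loss of ASCIZ went with another level of contractile and adhesion transcripts.

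Fibroblasts on plastic in serum build thick actin bundles, the stress fibres, which are contracted by non-muscle myosin and held at focal adhesions, where integrins join them to the matrix. Free actin monomers keep a cofactor away from SRF, so that polymerisation of actin and serum both raise the transcription of actin, myosin and adhesion genes through CArG boxes in their promoters. Stretched fibroblasts also send YAP into the nucleus, where with TEAD proteins it drives CTGF and CYR61. Myofibroblasts, the contractile form of the fibroblast in wounds, are recognised by smooth muscle actin, ACTA2.

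A CArG box was found near the start of 5 tested members, and those stretches are shown because they carry the known link between SRF and this group. A CArG box is CC, then 6 bases each of A or T, then GG. The pattern, though not each single box, reads alike on both strands. The sequences are from RefSeq, assembly GRCm38.p6, searched from 250 bases before to 50 bases after the annotated start, and are written 5′ to 3′ on the gene's strand with the box in capitals.
SRF, chr17:46556190-46556269, minus strand: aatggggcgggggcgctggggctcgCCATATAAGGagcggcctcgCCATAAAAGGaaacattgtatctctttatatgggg
MYL9, chr2:156775278-156775337, plus strand: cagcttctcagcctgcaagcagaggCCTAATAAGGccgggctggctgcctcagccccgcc
VCL, chr14:20929148-20929205, plus strand: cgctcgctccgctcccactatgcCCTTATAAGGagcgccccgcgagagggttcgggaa
CNN2, chr10:79988519-79988578, plus strand: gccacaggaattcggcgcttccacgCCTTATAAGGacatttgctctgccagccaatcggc
MYL6, chr10:128493025-128493084, minus strand: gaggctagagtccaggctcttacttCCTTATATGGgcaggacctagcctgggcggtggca
SRF held 2 boxes, beginning 82 and 62 bases before its start. The box of MYL6 began 50 bases before the start, that of CNN2 56, that of MYL9 161 and that of VCL 227.

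Windows were found for 40 of the 50 members, 46 windows in all because 6 members had several starts, and none was used for ACTG2, ACTB, TAGLN, MYH11, PXN, PARVA, CTGF, ITGA6, ITGA7 and ITGB3. A CArG box lay in a window of 6 of the 40 members (15%), the sixth being ACTG1, against 488 of 27025 genes counted the same way (1.81%). The letters GGAATG or CATTCC, the core that TEAD proteins bind, lay in a window of 15 of the 40 (37.5%) against 16.6% of all genes, CYR61 among them. The letters TATAAA, read on the gene's strand only, lay in 2 of 40 (5%), CALD1 and CYR61, against 9.77%. In these windows the members thus held more CArG and TEAD letters than other genes, as a description of the list. A match is not evidence of binding, and neither boxes beyond the window nor CArG boxes with a mismatch were searched.

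The labels were checked on the targeted gene. Normalised log2 intensity of Atmin was 6.79 ± 0.27 (SD, n = 3) in knockout and 8.78 ± 0.08 (n = 3) in wild-type cultures, a fold change of -1.99 on the log2 scale (SE 0.16, limma adjusted p = 0.00730). The groups did not overlap. Without any single wild-type culture the value was -2.02 to -1.96 and its adjusted p 0.0663 to 0.0819. Dynll1, its known target, was at 11.24 ± 0.02 in knockout and 13.13 ± 0.07 in wild-type cultures (-1.89, SE 0.11, limma adjusted p = 0.00157). Median intensity per array was 88.7 to 97.9, the detected probes numbered 17580 to 18794, and each probe was read from a median of 43 beads on every array. Knockout culture 3 correlated least with the other arrays (mean 0.980 against 0.985 to 0.989). Wild-type culture 1 alone carried Xist (8.20 against 4.32 to 4.37), the mark of an XX embryo. Without either or both of these arrays, 0 members passed the adjusted threshold of the test described next.

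No member passed the test between genotypes. At an adjusted p under 0.05, limma called 0 of 47 members, where it called 7 of 12824 genes (0.0546%; 4 higher and 3 lower in knockout cultures). Those 7 became 2 to 6 when 1 culture was left out, 2 without wild-type culture 1 or 3 and 3 without wild-type culture 2. At an unadjusted p under 0.05 the members gave 1 of 47 (2.13%), against 994 genes (7.75%; 513 higher, 481 lower). The genotypes did not overlap for 1 member (2.13%), against 1843 genes (14.4%; 881 higher, 962 lower). That member was in each case ITGB1, the beta 1 integrin. Both shares of members lay below the background, and an absent call does not show that the genotypes were equal. In bulk RNA such as this, fewer cells of a type and less RNA per cell cannot be told apart.

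The intervals describe how precisely the measured log2 intensities were compared. They do not bound the change in RNA where a probe nears the top of the scale and differences can be compressed. The 95% confidence interval lay within a 1.5-fold change in either direction for 32 of 47 members (68.1%), against 66% of all tested genes. Within a 2-fold change it lay for 43 of 47 (91.5%), against 93.5%. The estimates themselves ran from -0.52 (ITGA3) to 0.35 (TAGLN) on the log2 scale, 23 above 0 and 24 below. Their median was -0.00, beside -0.01 over all genes. No estimate exceeded a 1.5-fold change, which 356 of all genes did (2.78%). Members with a mean log2 intensity of 12 or more were 18 in number, and for 17 of them (94.4%) the interval stayed within 1.5-fold, beside 93.1% of all genes as bright; compression at that brightness was not tested. Below 12 the interval stayed within 1.5-fold for 15 of 29 members (51.7%), beside 64.5% of all genes below 12. Within 2-fold it stayed for 86.2% of these dimmer members, beside 93.2%. The precision was set by 3 arrays per genotype.

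**Figure D1:**
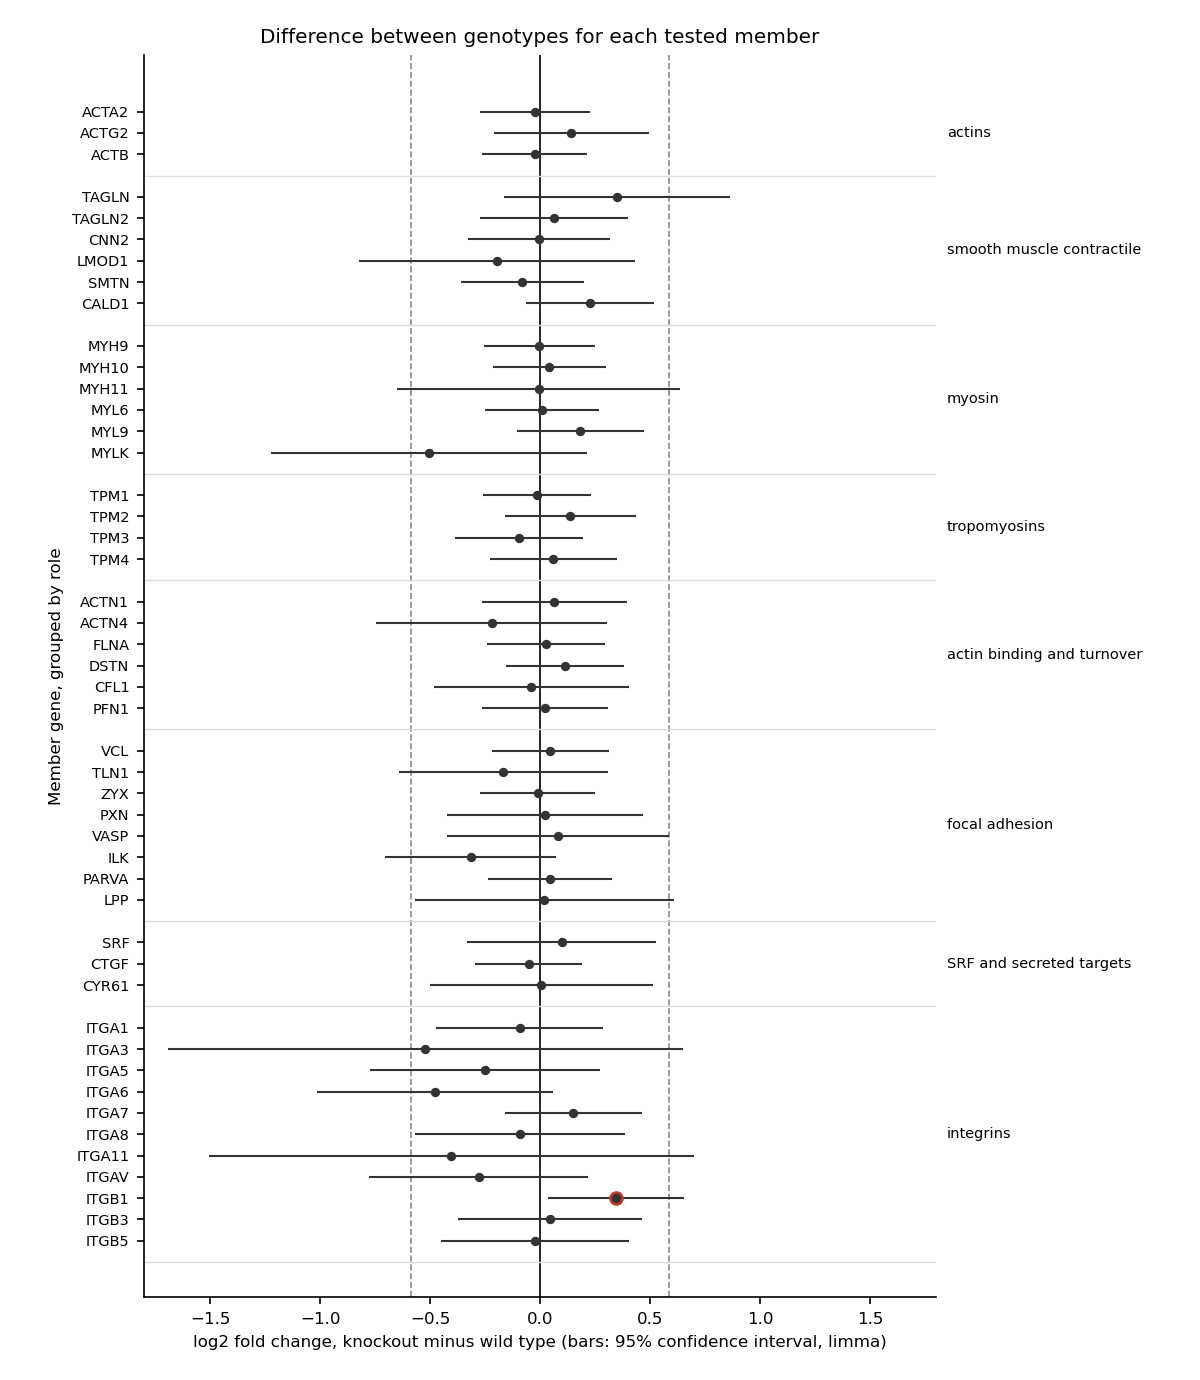
Log2 fold change, knockout minus wild type, of the 47 tested members grouped by role, with 95% confidence intervals from limma (3 cultures per genotype). Dashed lines mark a 1.5-fold change in either direction, and the larger red point is ITGB1, whose interval of 0.04 to 0.65 does not reach 0.

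The actins tested were 3: the smooth muscle forms ACTA2 and ACTG2 and the cytoplasmic form ACTB. ACTA2 was at 13.72, 13.67 and 13.78 in knockout cultures 1 to 3 and at 13.78, 13.78 and 13.68 in wild-type cultures 1 to 3, in normalised log2 intensity. The cultures lay within 1.08-fold of each other and the genotypes overlapped. The difference was -0.02 (SE 0.11, 95% interval -0.27 to 0.23, limma adjusted p = 0.976). Its probe was near the top of the range: the mean intensity was 13701 ± 307 (SD, n = 3) in knockout and 13624 ± 318 in wild-type cultures, where the highest intensity on an array was 13853 to 15152. A difference can be compressed so near the top. Quantile normalization also gives equal ranks equal values, so that knockout culture 3 and wild-type cultures 1 and 2 share the value 13.7788. It leaves the brightest probes little room to differ. Of 4 further detected ACTA2 probes, all gave estimates above 0, up to 0.16. ACTG2 gave 0.14 (interval -0.21 to 0.50) and ACTB -0.02 (interval -0.26 to 0.22). Actins are close copies of each other in their coding sequence, and whether a probe also reads another actin was not tested.

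**Figure D2:**
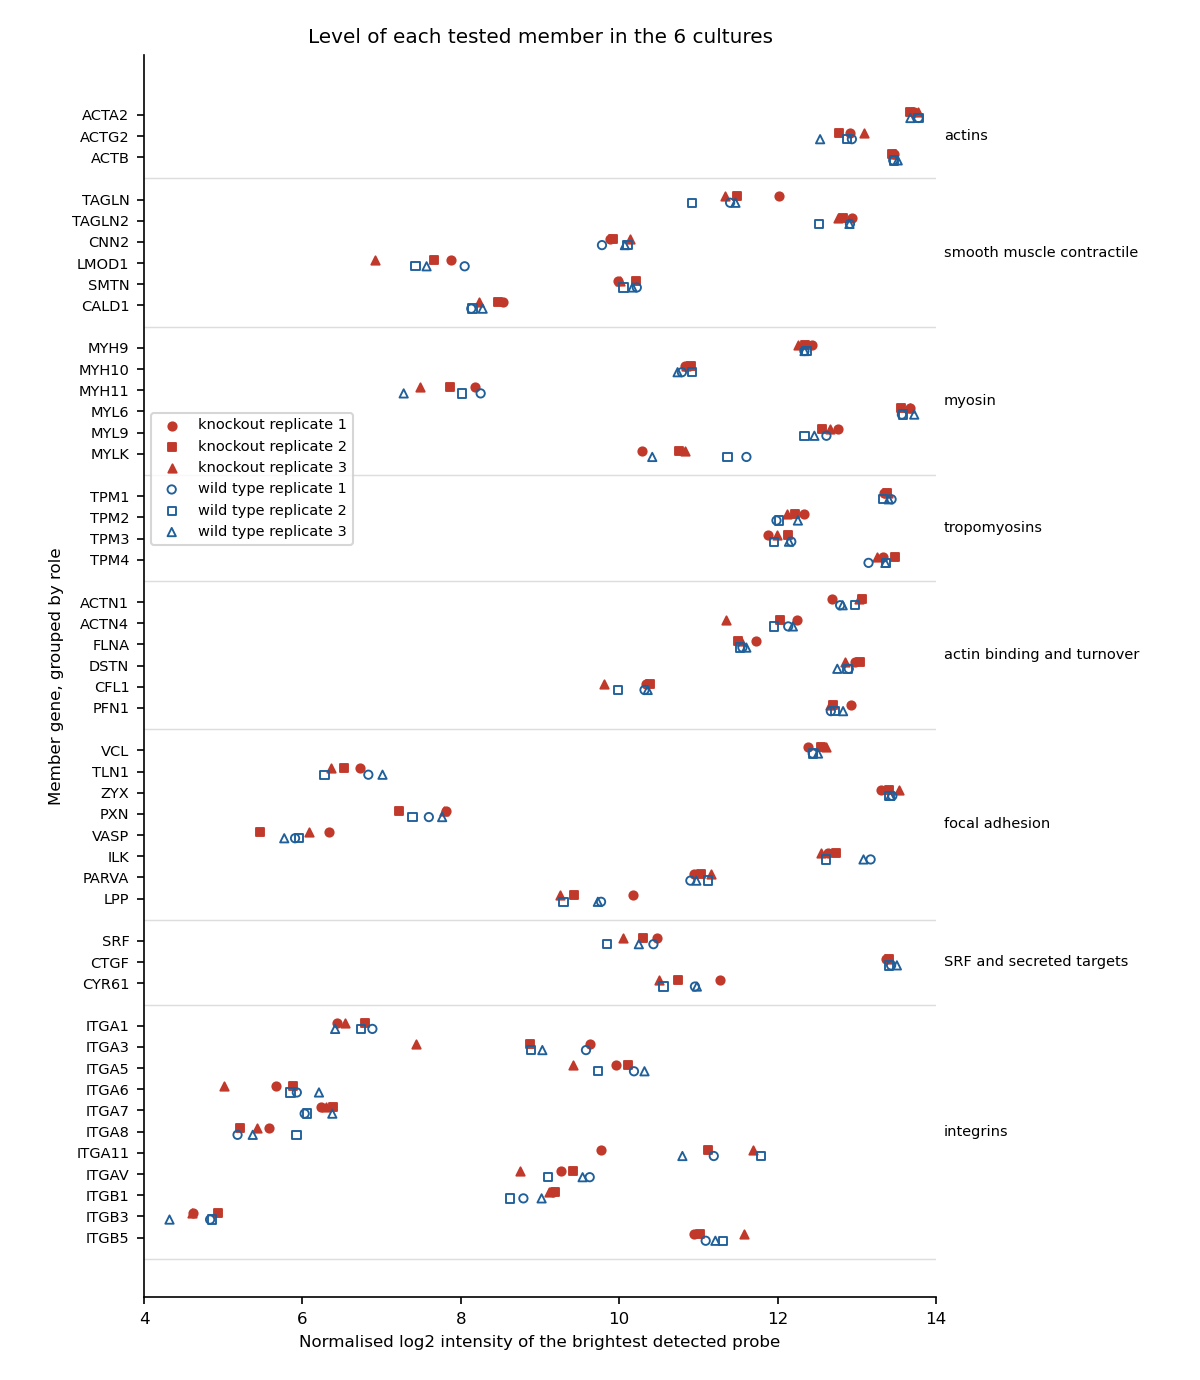
Normalised log2 intensity of the brightest detected probe of each of the 47 tested members in the 6 cultures, filled red for knockout and open blue for wild type, with the symbol giving the replicate number. The genotypes overlap for every member except ITGB1, and ITGA3 and ITGA11 spread widest. Levels of different genes come from different probes and are not comparable.

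Of the smooth muscle contractile proteins and their relatives, 6 were tested, with 3 estimates above 0 and 3 below. The one with the brightest probe was TAGLN2, a transgelin found in many cells, at 12.94, 12.83 and 12.76 in knockout and 12.91, 12.52 and 12.91 in wild-type cultures. The genotypes overlapped (0.06, SE 0.14, interval -0.27 to 0.40). TAGLN, the actin cross-linker SM22 and a classical SRF target, was at 12.01, 11.48 and 11.34 against 11.40, 10.92 and 11.47. Its highest value was in knockout culture 1 and its lowest in wild-type culture 2, 2.14-fold apart, and the others lay together. Its difference of 0.35 (SE 0.22, interval -0.16 to 0.86, limma adjusted p = 0.727) was 0.15 without knockout culture 1 and 0.18 without wild-type culture 2. CALD1, caldesmon, which holds myosin off the filament, gave 0.23 (interval -0.07 to 0.52). LMOD1, a nucleator of filaments in smooth muscle, gave -0.20 (interval -0.82 to 0.43), but 0.09 without knockout culture 3 and 0.27 when wild-type culture 1 was left out as well. SMTN, smoothelin, gave -0.08, and CNN2, the calponin of non-muscle cells, gave -0.00.

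Of the myosin genes, 6 were tested. MYL6, an essential light chain shared by smooth and non-muscle myosin, was at 13.68, 13.56 and 13.67 in knockout and 13.57, 13.59 and 13.72 in wild-type cultures. The genotypes overlapped, within 1.12-fold over all cultures (0.01, SE 0.11, interval -0.25 to 0.27). The non-muscle heavy chains MYH9 and MYH10 gave -0.00 and 0.04, with intervals within 1.5-fold. MYL9, the regulatory light chain whose phosphorylation starts contraction, gave 0.18 (interval -0.11 to 0.47). MYH11, the smooth muscle heavy chain, gave -0.01 with a wide interval of -0.65 to 0.64, and 0.38 without wild-type culture 1 and knockout culture 3.

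MYLK, the kinase that phosphorylates the regulatory light chain, had the widest spread within genotypes of the 6 myosin genes (SD 0.49), with MYH11 next (0.43). It was at 10.29, 10.76 and 10.83 in knockout and 11.61, 11.37 and 10.42 in wild-type cultures. Wild-type cultures 1 and 2 lay above all knockout cultures, and wild-type culture 3 lay among the knockout cultures. The difference of -0.50 (SE 0.31, interval -1.22 to 0.21, limma adjusted p = 0.721) was -0.87 without wild-type culture 3 (unadjusted p = 0.00445, limma adjusted p = 0.565) and -0.27 without wild-type culture 1. Both further probes of MYLK gave the same sign, -0.20 and -0.35, and followed the used probe over the 6 cultures (r = 0.903 and 0.969, as a description).

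All 4 tropomyosins, which lie along the actin filament and govern what binds it, had intervals within 1.5-fold. TPM1 was at 13.35, 13.39 and 13.40 in knockout and 13.44, 13.33 and 13.40 in wild-type cultures. These values overlapped and lay within 1.08-fold (-0.01, SE 0.11, interval -0.26 to 0.23). TPM2 gave 0.14, TPM3 -0.09 and TPM4 0.06. A dimmer TPM2 probe gave 0.51 at an unadjusted p of 0.0384, and the second TPM1 probe gave 0.20.

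Proteins that bind or turn over actin filaments were represented by 6 tested members, and 5 had intervals within 1.5-fold. DSTN, destrin, which severs filaments, was at 12.98, 13.04 and 12.85 in knockout and 12.90, 12.88 and 12.75 in wild-type cultures. The genotypes overlapped (0.11, SE 0.11, interval -0.15 to 0.38). CFL1, its relative cofilin, gave -0.04, and PFN1, profilin, which feeds monomers to growing ends, gave 0.02. FLNA, the X-linked filament cross-linker filamin A, gave 0.03, with wild-type culture 1, the XX culture, at 11.56 and the others at 11.50 to 11.73. The alpha-actinins, which bundle filaments, gave 0.07 (ACTN1) and -0.22 (ACTN4). ACTN4 was lowest in knockout culture 3, at 11.35 against 11.96 to 12.25 elsewhere, and its further probes gave -0.17 and -0.40. Without that culture the difference was 0.04.

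Of the focal adhesion genes, 8 were tested and 4 had intervals within 1.5-fold. ZYX, zyxin, which gathers at adhesions under tension, was at 13.31, 13.41 and 13.53 in knockout and 13.45, 13.41 and 13.42 in wild-type cultures. The knockout values spanned the wild-type values (-0.01, SE 0.11, interval -0.27 to 0.25). VCL, vinculin, which ties talin to actin, gave 0.05 and PARVA, alpha-parvin, also 0.05, both within 1.5-fold. ILK, integrin-linked kinase, the partner of parvin, was at 12.64, 12.73 and 12.55 in knockout and 13.17, 12.61 and 13.08 in wild-type cultures. Wild-type cultures 1 and 3 lay above all knockout cultures and wild-type culture 2 lay among them (-0.32, SE 0.17, interval -0.70 to 0.07, limma adjusted p = 0.675). Without wild-type culture 2 the difference was -0.47, without wild-type culture 1 it was -0.22, without that culture and knockout culture 3 it was -0.16, and the second ILK probe gave -0.03. TLN1, talin, which activates integrins, gave -0.17, and the scaffold PXN, paxillin, gave 0.02. VASP, an elongation factor, gave 0.08 and LPP, a relative of zyxin, 0.02, the last with an interval of -0.57 to 0.61 and an estimate of 0.29 without wild-type culture 1 and knockout culture 3.

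SRF and the secreted proteins CTGF and CYR61 were all tested, and their intervals lay within 1.5-fold. CTGF, a matrix protein induced by tension and by TGF-beta, was at 13.37, 13.40 and 13.41 in knockout and 13.43, 13.41 and 13.51 in wild-type cultures. The genotypes overlapped and the cultures lay within 1.10-fold (-0.05, SE 0.10, interval -0.29 to 0.19). CYR61 was at 11.27, 10.74 and 10.50 against 10.96, 10.56 and 10.98, so that its knockout values again spanned those of the wild type (0.01, SE 0.22, interval -0.50 to 0.51). Its further probes gave -0.17 and -0.21. SRF itself gave 0.10 (SE 0.18, interval -0.33 to 0.53), and 0.34 without knockout culture 3 and wild-type culture 1. The 5 tested members with a CArG box shown above had a median of 0.05, between -0.00 and 0.18, 4 of them above 0. The 32 tested members whose window held no exact match had a median of -0.02.

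Integrins are pairs of an alpha and a beta chain that bind collagen, laminin or fibronectin. Of 11 tested, 5 had intervals within 1.5-fold, 3 of 8 alpha chains and 2 of 3 beta chains. ITGB1, the beta chain that most alpha chains pair with, was at 9.16, 9.19 and 9.11 in knockout and 8.79, 8.62 and 9.02 in wild-type cultures. All knockout values lay above all wild-type values, the closest being knockout culture 3 and wild-type culture 3. Means were 9.16 ± 0.04 and 8.81 ± 0.20 (SD, n = 3 each), a difference of 0.34 (SE 0.13, interval 0.04 to 0.65) with an unadjusted p of 0.0332 and a limma adjusted p of 0.619. It is thus no call over all genes, and the unadjusted p was 0.0658 to 0.114 without knockout culture 1 or 2 or wild-type culture 1 or 2. The second ITGB1 probe gave 0.17 (unadjusted p = 0.277), and with arrays scaled to a common median in place of quantiles the first gave 0.12 (unadjusted p = 0.641). ITGB5, a beta chain of vitronectin receptors, was at 10.94, 11.03 and 11.58 against 11.09, 11.31 and 11.21, overlapping (-0.02, SE 0.18, interval -0.45 to 0.40). ITGB3, its relative, was detected on 3 arrays and gave 0.05.

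Estimates were below 0 for 7 of the 8 alpha chains, with a median of -0.26, and each of the 8 intervals included 0. ITGA6, a laminin receptor chain, was at 5.66, 5.89 and 5.01 in knockout and 5.93, 5.85 and 6.21 in wild-type cultures. Knockout culture 3 was the lowest and the others lay between 5.66 and 6.21 (-0.48, SE 0.23, interval -1.01 to 0.06, limma adjusted p = 0.663), and without that culture the difference was -0.22. ITGA5, the fibronectin receptor chain, gave -0.25 (interval -0.77 to 0.27) and ITGAV, of the vitronectin receptors, -0.28 (interval -0.78 to 0.22). Without knockout culture 3 these were -0.04 and -0.08. ITGA1, a collagen receptor chain, and ITGA8, which binds nephronectin, both gave -0.09, and ITGA7, a laminin receptor chain of muscle, gave 0.15.

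ITGA3 and ITGA11 differed between cultures more than any other member. ITGA3, another laminin receptor chain, was at 9.63, 8.87 and 7.43 in knockout and 9.58, 8.89 and 9.03 in wild-type cultures. Knockout culture 3 stood alone, 4.60-fold under knockout culture 1, and the rest overlapped. The difference of -0.52 (SE 0.50, interval -1.69 to 0.65, limma adjusted p = 0.829) turned to 0.09 without knockout culture 3 and to 0.29 without both that culture and wild-type culture 1, and was -1.01 without knockout culture 1. ITGA11, the fibroblast receptor for fibrillar collagen, was at 9.77, 11.12 and 11.69 against 11.19, 11.79 and 10.80. Here knockout culture 1 stood lowest, 4.08-fold under wild-type culture 2. The difference of -0.40 (SE 0.47, interval -1.51 to 0.70, limma adjusted p = 0.858) was 0.14 without knockout culture 1 and -0.81 without knockout culture 3. Knockout culture 1 was thus the highest culture for ITGA3 and the lowest for ITGA11.

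**Figure D3:**
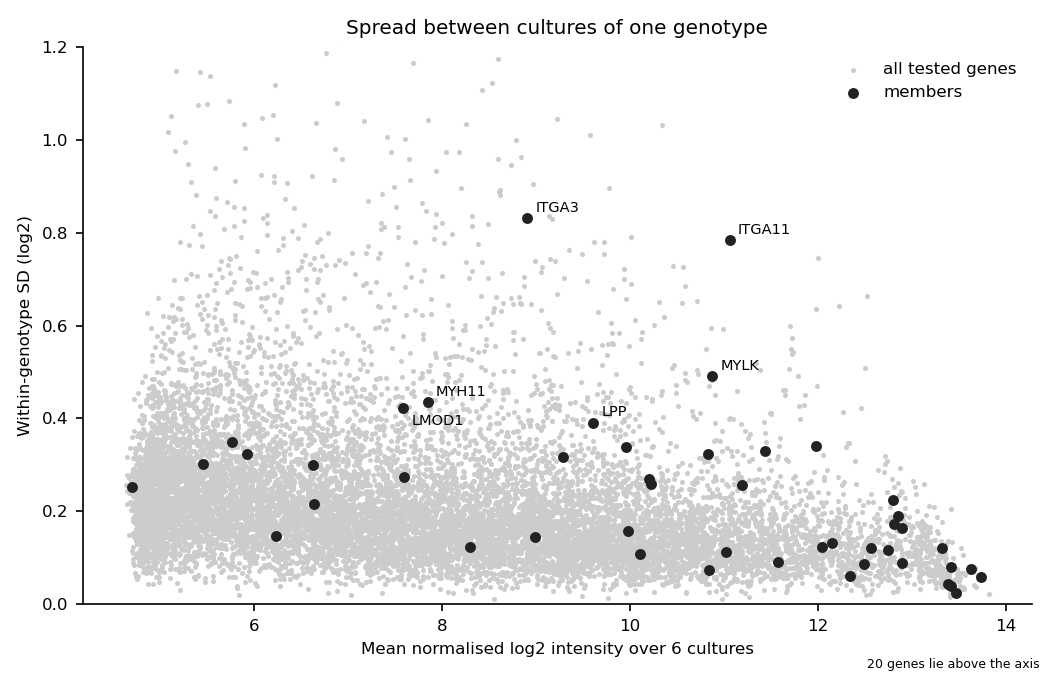
SD within genotypes (log2) against mean normalised log2 intensity over the 6 cultures for all tested genes (grey) and the 47 members (black), with 20 genes above the axis. ITGA3 (SD 0.83) and ITGA11 (0.78) lie near the upper edge for their brightness, while many bright members lie at the bottom edge.

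Among embryos of the same genotype the members differed widely in spread. The SD within genotypes was 0.83 for ITGA3, at the 99.2nd percentile of all tested genes, 0.78 for ITGA11 (99.0th) and 0.49 for MYLK (95.4th). MYH11, LMOD1 and LPP lay at the 93.2nd, 92.5th and 90.8th percentiles, and no other member lay as high. The smallest SDs of measured intensity were those of ACTB (SD 0.02, percentile 0.156), CTGF (0.04, percentile 0.702), TPM1 (0.04, percentile 0.983) and ACTA2 (0.06, percentile 2.53). The median SD was 0.17 for members and 0.18 for all genes, and 23 of 47 members lay above the median gene. Among genes with a mean log2 intensity below 12 it was 0.30 for members and 0.19 for all genes. At 12 or more it was 0.10 for both. Probes of 13 members were among the brightest on the array, where SDs are small for all genes and differences can be compressed, so that these small SDs were not read as steady RNA levels. The standard error over beads, an error within 1 array that leaves out labelling and hybridisation, was 2.06% to 10.1% of the mean for the members, with a median of 4.06%.

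Averaged over the 47 members, log2 intensity was 10.55, 10.51 and 10.40 in knockout and 10.58, 10.46 and 10.52 in wild-type cultures. The lowest mean was that of knockout culture 3 and the highest that of wild-type culture 1. Knockout cultures 1 and 2 lay above wild-type culture 2, so the genotypes overlapped. Contractile smooth muscle genes averaged 10.21, 10.09 and 9.90 against 10.08, 9.86 and 10.08. Integrins averaged 7.93, 8.09 and 7.80 against 8.12, 8.08 and 8.06. Knockout culture 1 was the highest of the 6 for 15 members (31.9%, against 19.3% of all genes), and wild-type culture 2 for 3 (6.38%, against 18.2%). Knockout culture 3 was the lowest for 12 members (25.5%), beside 25.6% of all genes.

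Several members had more than 1 detected probe, which gives a second reading under the same gene name. Whether such probes read the same transcript forms was not tested. Of 101 probes of the members 82 were detected, and 3 of these had an unadjusted p under 0.05, beside 7.53% of all detected probes. The 3 were the ITGB1 probe, the dim TPM2 probe and the dimmest CALD1 probe, and 0 passed the adjusted threshold. In 14 of 22 members with several probes, all estimates had the same sign. The 3 ITGA11 probes followed each other (r = 0.991 and 0.902 with the used probe), as did those of CYR61 (0.936 and 0.887) and of ACTN4 (0.936 and 0.885). The spread of these 3 genes between cultures was thus seen by each of their probes. It was not so for every member: r was below 0 for CNN2 (-0.683), MYL6 (-0.292) and ILK (-0.224), among others. The correlations are over 6 cultures and describe probes that share each array.

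The CALD1 probes gave 0.23, 0.21 and 0.54, all above 0. A further probe, listed under the older name C920027I18RIK and brighter than these, gave 0.40 (SE 0.20, unadjusted p = 0.0815 and limma adjusted p = 0.660 when names were updated). Its values were 10.11, 9.68 and 10.12 in knockout and 9.82, 9.21 and 9.68 in wild-type cultures. The genotypes overlapped. All 4 probes lay above 0, none past the threshold, and with arrays scaled to a common median the used probe gave -0.01. Of the 3 bright ACTB probes 1 disagreed on 1 array: it read 11.26 in knockout culture 1 and 13.36 to 13.45 elsewhere, an intensity of 2834 over 75 beads against 10544 to 11190. The other bright ACTB probes did not show this drop. The remaining ACTB probes, both dim and detected on 4 arrays, varied over 1.42 and 1.40 on the log2 scale and were also lowest in knockout culture 1, at 4.54 and 4.49.

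**Figure D4:**
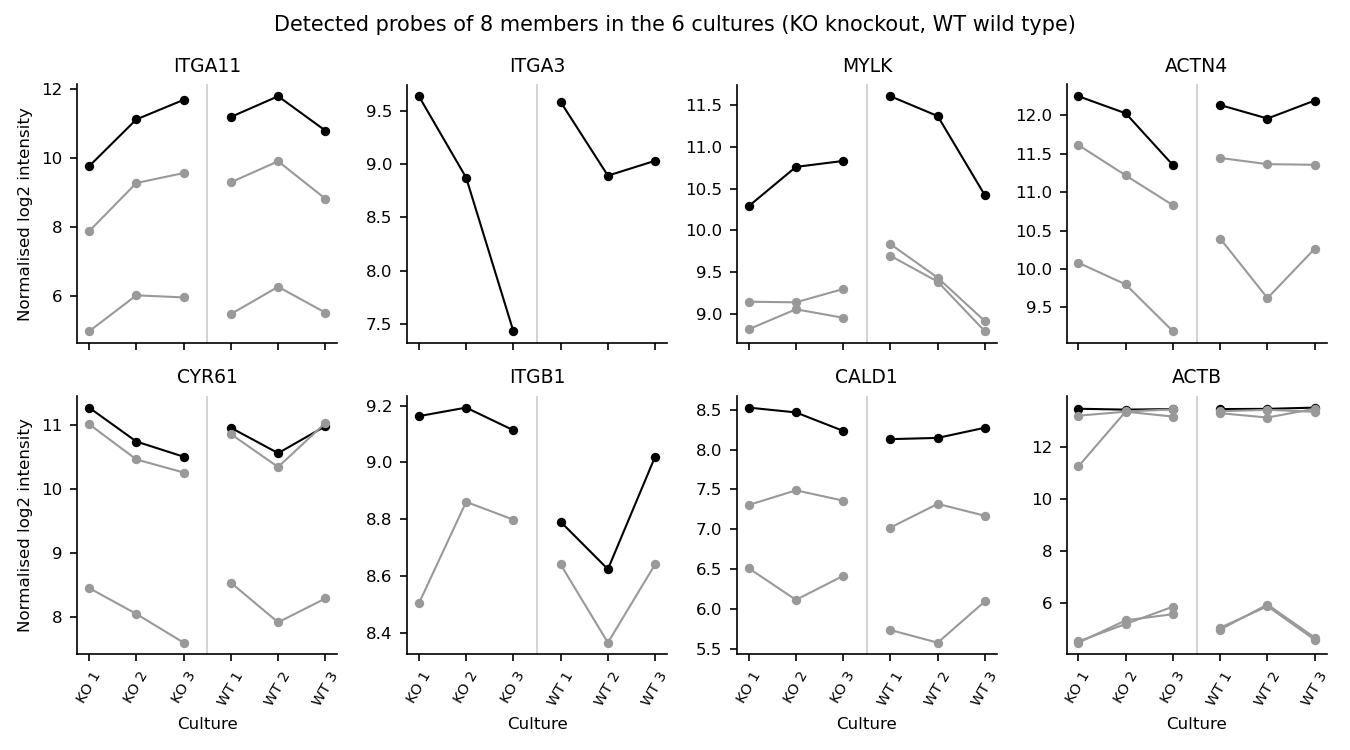
Normalised log2 intensity of every detected probe of 8 members in the 6 cultures (KO knockout, WT wild type). Black is the probe used and grey the others, and lines only join the values of a probe. The probes of ITGA11, MYLK, ACTN4 and CYR61 move together, and 1 bright ACTB probe falls to 11.26 in knockout culture 1 alone.

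Genes around the members were read from the same test, with 0 past the adjusted threshold in each list. The counts below stand beside 7.75% of all genes at an unadjusted p under 0.05 and 14.4% with no overlap. Of 23 tested SRF cofactors and other SRF or smooth muscle genes, 2 were higher and 2 lower at an unadjusted p under 0.05 (median 0.02). FOS, an immediate early gene, gave -0.86 (SE 0.23, unadjusted p = 0.00596, limma adjusted p = 0.472) and EGR1, another, -0.39 (SE 0.16). CSRP2, a LIM protein of smooth muscle, gave 0.42 (SE 0.13). The unadjusted limma p was 0.135 for EGR1 without wild-type culture 2 and 0.0553 for CSRP2 without wild-type culture 3. FOS was at 8.01, 8.34 and 8.88 in knockout and 9.08, 9.22 and 9.52 in wild-type cultures, and the genotypes did not overlap. These early genes respond to serum through SRF, and the difference was opposite in sign to that of CSRP2.

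In the YAP and TEAD pathway, 0 of 18 were higher and 1 lower at an unadjusted p under 0.05 (list median -0.06). The lower gene was the Hippo scaffold SAV1 (-0.33, SE 0.13), with an unadjusted limma p of 0.104 without knockout culture 3. Of 37 other actin filament regulators, 0 had an unadjusted p under 0.05 (median -0.08), and the smallest p was that of DBN1, drebrin (0.22, SE 0.12, unadjusted p = 0.100).

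At the adhesion side, 2 of 25 other focal adhesion genes were higher and 2 lower at an unadjusted p under 0.05 (median -0.03). The tetraspanin CD9 gave -0.50 (SE 0.17), the phosphatase PTPN12 0.31 (SE 0.12) and the kinase SRC 0.30 (SE 0.12). With single cultures left out, the unadjusted limma p rose to as much as 0.0725 for CD9, 0.105 for PTPN12 and 0.106 for SRC. Of 6 other integrins, ITGA10, a collagen receptor chain, was lower at an unadjusted p of 0.0303 (-0.47, SE 0.18; list median -0.19), and gave -0.30 at an unadjusted p of 0.0900 without knockout culture 2. Of 15 integrin ligands (list median 0.03), NPNT, nephronectin, was higher (0.48, SE 0.15, unadjusted p = 0.0132, limma adjusted p = 0.557). Its unadjusted limma p was 0.0547 without wild-type culture 3. It was dim, at a mean of 5.38 in knockout and 4.90 in wild-type cultures, and was detected on 3 knockout and 2 wild-type arrays.

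**Figure D5:**
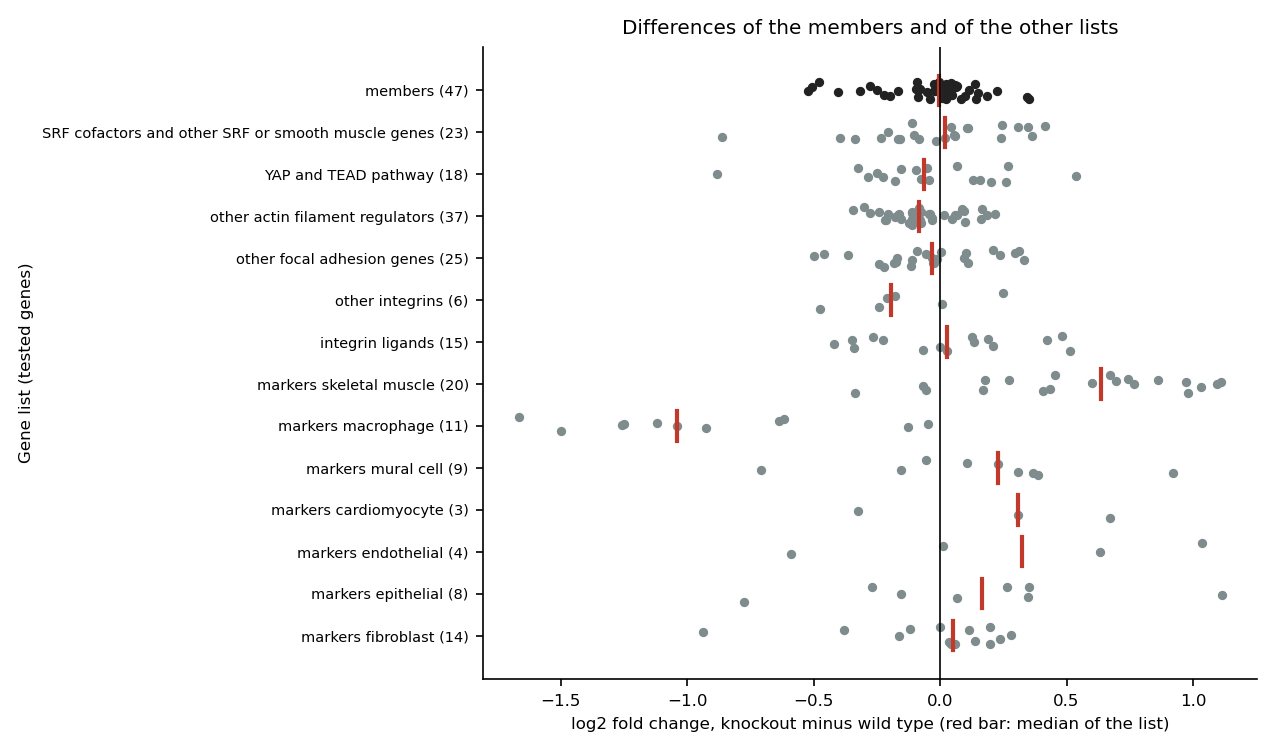
Log2 fold change, knockout minus wild type, of each tested gene of the members and of 13 other lists, with the number tested in brackets and the median as a red bar. Members centre at -0.00 and other integrins at -0.19, skeletal muscle markers lie mostly above it (median 0.64) and macrophage markers below it (median -1.04).

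Of the markers of other cells that such cultures can hold, those of skeletal muscle and macrophages differed between genotypes by more than the members did. The medians of the mural, cardiomyocyte and epithelial markers changed sign when some single culture was left out. The part of these other cells in the members' values was not tested. Of 20 tested skeletal muscle markers (29 listed), 14 were higher and 0 lower at an unadjusted p under 0.05, 17 lay above 0 and 11 did not overlap, with a median of 0.64. Those counts compare with 7.75% and 14.4% of all genes. In values added after seeing the data, 12 were higher without knockout culture 3, 9 without wild-type culture 1 and 8 without both, with medians of 0.63, 0.45 and 0.43. Their summed linear level was 8587 to 11181 in knockout and 6011 to 8116 in wild-type cultures, while MYOD1, MYF5, MYF6, CKM and PAX7 were not detected. ACTC1, the cardiac actin of embryonic muscle, gave 0.70 (SE 0.16), the troponin TNNT1 1.03 (SE 0.24) and the embryonic light chain MYL4 0.97 (SE 0.24). Without both wild-type culture 1 and knockout culture 3, TNNT1 gave 0.69 and MYL4 0.63. These sarcomeric genes are cousins of the members, and the 3 actins and 6 myosin genes of the group had medians of -0.02 and 0.00.

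Macrophage markers went the other way. Of 11 tested (21 listed), 0 were higher and 8 lower at an unadjusted p under 0.05, all 11 lay below 0 and the median was -1.04. Only 6 of the 11 were detected on all 6 arrays. The 8 include MS4A7, the 1 gene detected on wild-type arrays only, so that the detection filter in part fixed these counts. With any 1 culture left out, 7 or 8 were lower, and without both wild-type culture 1 and knockout culture 3, 9 were. Their summed level was 616 to 894 against 1176 to 2164, and PTPRC, CSF1R and CX3CR1 were not detected. MS4A7 was detected on the 3 wild-type arrays and on 0 knockout arrays, so that it was tested only through the genotype where it is high; it was at least 1.57-fold lower in knockout cultures, taking the lowest detected signal as the floor, and its limma adjusted p of 0.190 supports nothing. LAPTM5 gave -1.12 (SE 0.23) and LYZ2 -1.50 (SE 0.33), with limma adjusted p-values of 0.392 and 0.462. The list also holds the lysozyme names LYZ and LYZS. Whether these names read the same RNA as LYZ2 was not tested, so the counts are of target names and not of independent markers.

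Mural cells, the pericytes and smooth muscle of vessels, express many of the members, and 9 of their 10 markers were tested. Higher was 1, the signalling regulator RGS5 (0.92, SE 0.30), and 1 lower, the proteoglycan CSPG4 (-0.71, SE 0.23), at an unadjusted p under 0.05 (median 0.23). The unadjusted limma p rose to 0.0533 for RGS5 without knockout culture 2 and to 0.0572 for CSPG4 without wild-type culture 3. Without knockout culture 3 CSPG4 gave -0.45 and the median was -0.20, and without wild-type culture 2 the median was 0.04. Their summed level was 2885 to 4207 in knockout and 2364 to 3023 in wild-type cultures. Cardiomyocyte markers were tested for 3 of 10 genes (median 0.31), with MYH6, TNNI3 and MYL2 not detected and the smallest p for NPPA (0.67, SE 0.37), which gave 0.20 without knockout culture 2. Endothelial markers were tested for 4 of 10 (median 0.32), FLT1 higher (0.63, SE 0.22) and ENG lower (-0.59, SE 0.23) at an unadjusted p under 0.05, while PECAM1 and CDH5 were not detected. Without knockout culture 3 ENG gave -0.33 at an unadjusted p of 0.0677. FLT1 gave 0.54 at an unadjusted limma p of 0.0762 without wild-type culture 2. Epithelial markers were tested for 8 of 12 (median 0.17), with CDH1 higher (0.35, SE 0.15, unadjusted p = 0.0496), or 0.22 without knockout culture 1 (unadjusted p = 0.153). All 14 fibroblast markers were tested (median 0.05, or -0.23 without knockout culture 3). They summed to 33406 to 44438 in knockout and 35722 to 38243 in wild-type cultures. PDGFRA was lower at an unadjusted p under 0.05 (-0.94, SE 0.34). Its unadjusted limma p was 0.0538 to 0.0841 without knockout culture 1 or wild-type culture 1 or 2. The fibroblast label of the cultures was thus met by its markers in both genotypes.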

How the data were processed

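RNA from 6 cultures was measured on 1-colour bead arrays, 1 per culture. Per the file headers, the authors exported mean bead intensity, its SD, the number of beads and a detection fraction (1 means detected) with GenomeStudio version 1.6.0, without normalization. The submitters' processing notes name lumi for the deposited normalized table, whose values are a score of unstated log base and method (slope on log2 intensity 0.789 between 9 and 11, 0.504 between 6 and 7, median 7.13). It served as an alternative. Of 48 per-array columns, 24 were not used.

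Background correction and quantile normalization used limma's neqc with an offset of 16 (limma version 3.58.1, R version 4.3.3). Probes with a detection fraction of at least 0.95 on 3 or more arrays were kept, 18221 of 45281, and per target name the brightest was used. The 12824 names were fitted with lmFit and eBayes for a two-sided test of knockout minus wild type, at a threshold of 0.05 after Benjamini-Hochberg adjustment over the 12824. Single probes were fitted apart, over all detected probes. Summed marker levels add 2 to the power of the log2 values. The procedure was tested on simulated data. Replicates are separate embryos, and the number of arrays limits the precision.

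The members, the 13 other lists and the tests were chosen with earlier results of these data known. All 50 members are named by role. Values per culture are given for members with an unadjusted p under 0.05 or no overlap and for the brightest of each role; from each other list come up to 3 genes with an unadjusted p under 0.05, or else the smallest p; Atmin and Dynll1 check the labels. Per-culture values of TAGLN, MYLK, ILK, CYR61, ITGA6, ITGA3, ITGA11, FOS, CALD1 and ACTB were added after values were seen, as were the other lists' values with cultures left out. RefSeq tables of GRCm38.p6 gave names (80.9% of probes matched) and promoters. Probe sequences were not used.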

Additional observations from a re-analysis of the deposited data

How the results depend on the processing

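No member passed the adjusted threshold in any of 845 member values under the alternatives, and the smallest adjusted p of limma was 0.351 (ITGB1 with array quality weights; its range over 18 alternatives was 0.351 to 0.984, with a log2 fold change of 0.12 to 0.45). At an unadjusted p under 0.05 the counts were 1 member and 994 genes; the members numbered 0 to 3 over the alternatives, 3 with array quality weights (CALD1, ILK and ITGB1), and 2 under median scaling (ITGA6 and MYLK, both lower). ITGB1's unadjusted p was 0.0658, 0.0849, 0.0833 and 0.114 without knockout culture 1 or 2 or wild-type culture 1 or 2. Genes past the threshold, 7 in the reported test, numbered 3 without background correction, 3 with the submitters' normalized values, 4 without a filter on dim probes, 12 with array quality weights and 2 to 6 when 1 culture was left out. Array scaling moved the split of directions: scaled to a common median, all genes shifted by a median of -0.17 and the members by -0.12, and genes at an unadjusted p under 0.05 were 89 higher and 778 lower, in place of 513 and 481. Atmin was -1.28 over the mean of its detected probes (adjusted p = 0.0589), and -2.08 to -1.85 when 1 culture was left out, missing the threshold without any 1 of the wild-type cultures. Of 12 members whose estimate exceeded its standard error, 5 changed sign: CALD1 (-0.0095) and ITGA7 (-0.021) under median scaling, ITGA3 between -1.01 and 0.086 with 1 culture left out and at 0.29 without knockout culture 3 and wild-type culture 1, and ITGA5 (0.0092) and ITGAV (0.020) without those 2 cultures. Of the other 35 members, 30 changed sign under some alternative. The cause was not tested.

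With the replicate number as a block, 6 genes and 0 members passed, and ITGB1 had an unadjusted p of 0.0611. Deviations of same-numbered cultures correlated at 0.23, -0.19 and -0.20, and not every culture correlated best with its own number, so that the numbers were not taken to pair the cultures. Dim probes such as ITGB3 and CNN1 lie near background, which limits what the arrays can resolve for them.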
